A study of Mus musculus with 29 samples.

Results

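The genes of the megakaryocyte and platelet lineage described here number 10 and were followed in hematopoietic stem cells (HSCs) from young and old mice with and without Gadd45b. They were taken by symbol (Vwf, Itga2b, Gp1ba, Gp1bb, Gp5, Gp9, Pf4, Ppbp, Clec1b and Treml1) among the 55376 gene rows of the count files, and all 10 were present. The study asked what loss of Gadd45b, a stress-induced growth arrest and DNA damage gene, does to HSC aging. RNA-seq was available for 19 libraries of sorted bone marrow HSCs (Lin-cKit+Sca1+CD34-Flk2-CD150+). There were 4 libraries from young wild-type mice (YWT), 4 from old wild-type mice (OWT), 4 from young Gadd45b knockout mice (YKO) and 7 from old knockout mice (OKO). The labels name the genotypes WT and Gadd45KO, give age only as young or old and list every library as female. The knockout is a deletion in all cells of the animal, so nothing restricts it to HSCs, and CD41, the product of Itga2b, was not part of the sorting gate.

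Megakaryocytes are the giant bone marrow cells that shed platelets. Their genes are already transcribed in some HSCs. Those that express Vwf are known for a bias towards platelet output that becomes more common with age. On a platelet, von Willebrand factor (Vwf) bridges damaged vessel wall to the GPIb-IX-V receptor, which is built from Gp1ba, Gp1bb, Gp9 and Gp5. The integrin αIIbβ3 (Itga2b with Itgb3) then binds fibrinogen, alpha granules release the chemokines Pf4 and Ppbp, and the receptors encoded by Clec1b (CLEC-2) and Treml1 (TLT-1) take part in activation.

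Library totals ran from 22197555 to 77970627 assigned reads, with a median of 57562473. Levels are given below as CPM, read counts scaled to the library size after TMM normalisation, with the mean ± SD over the libraries of a group. Gadd45b itself stood at 10.5 ± 4.69 CPM in YWT, 11.5 ± 2.63 in OWT, 9.53 ± 4.64 in YKO and 4.45 ± 1.39 in OKO, so the YKO libraries were not separated from YWT by the targeted gene. HSC markers were present throughout, with mean Slamf1 (CD150) between 50.2 and 95.7 CPM and mean Procr between 73.3 and 184.6 CPM. The titles split the libraries into batch 1 (YWT, YKO and OKO1 to OKO3) and batch 2 (OWT and OKO4 to OKO7), so every OWT library differs from YWT in batch as well as age, and the groups that bear on batch alone are the OKO libraries of both batches. Xist and Ddx3y showed both sexes among the libraries despite the labels, and OWT2 was the only OWT library with Ddx3y reads. Within batch 2, the study's own sample table gives OWT1, OWT2, OKO4 and OKO5 a higher age number than the other libraries. It also gives them a larger share of uniquely aligned reads. Neither old group was uniform in these respects, and the fits took each as a single group. OKO1 and OKO3 stood apart in the results below: their summed proliferation markers were 272 and 236.8 CPM, against 697.8 CPM or more in the other libraries, and their TMM factors were 1.83 and 1.41. Fits with batch as a covariate took the batch difference from OKO1 to OKO3 against OKO4 to OKO7 alone. Their OWT against YWT values therefore carry the deviations of OKO1 and OKO3.

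The 10 genes lie on chromosomes 5, 6, 11, 16 and 17 (mm10/GRCm38, GENCODE M21). Ppbp (chr5:90768518-90770063) and Pf4 (chr5:90772435-90773383) are neighbours on the plus strand with 2371 bases between them. Vwf (chr6:125546774-125686679), Gp9 (chr6:87778072-87779768) and Clec1b (chr6:129397297-129409335) share a chromosome, as do Itga2b (chr11:102453297-102470122) and Gp1ba (chr11:70639122-70642036). Gp1bb (chr16:18620317-18622403) and Gp5 (chr16:30307685-30310779) are on chromosome 16, and Treml1 (chr17:48359916-48367176) is on chromosome 17. Gp1bb shares 92.9% of its exonic bases with Sept5 and Gm49601 on the same strand, and its values are uncertain. Clec1b shares 3.61% of its exonic bases with Clec9a.

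Promoter sequence was at hand for 9 of the 10 genes (RefSeq, GRCm38.p6), all but Vwf. The letters GATAA and GGAAG were searched on both strands of the 250 bases before each start. GATAA, the core bound by GATA factors such as Gata1, was found in 4 of 9 members (44.4%) and in 22.6% of 32851 promoters. GGAAG, which fits ETS factors such as Fli1, was found in 8 of 9 members (88.9%) and in 64.1% of all promoters. The last 150 bases before the start are printed for 4 members that went different ways in the libraries below, 5′ to 3′ on the gene's own strand, with every GATAA or GGAAG match of either strand in capitals.
Gp5 (chr16:30310782-30310931, minus strand): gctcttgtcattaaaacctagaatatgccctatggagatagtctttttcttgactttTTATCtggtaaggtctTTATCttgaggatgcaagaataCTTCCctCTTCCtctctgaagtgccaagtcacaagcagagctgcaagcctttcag
Gp9 (chr6:87777920-87778069, plus strand): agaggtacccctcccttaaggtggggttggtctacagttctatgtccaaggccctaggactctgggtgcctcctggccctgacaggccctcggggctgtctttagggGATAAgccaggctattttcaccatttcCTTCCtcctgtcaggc
Pf4 (chr5:90772285-90772434, plus strand): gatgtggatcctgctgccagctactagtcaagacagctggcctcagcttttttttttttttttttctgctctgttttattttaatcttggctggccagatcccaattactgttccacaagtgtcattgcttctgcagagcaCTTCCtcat
Clec1b (chr6:129397147-129397296, plus strand): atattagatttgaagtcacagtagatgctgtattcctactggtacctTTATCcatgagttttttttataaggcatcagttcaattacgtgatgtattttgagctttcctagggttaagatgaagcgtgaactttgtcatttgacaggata
In these letters Gp5 carries a pair of GATA matches close to a pair of ETS matches, Gp9 has 1 of each, Pf4 has an ETS match alone and Clec1b a GATA match alone. The matches are descriptions of sequence and no binding was measured.

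The members were far from equally abundant. Per kilobase of exon in YWT, the mean level was 257 CPM/kb for Pf4, 53.8 for Itga2b, 46.3 for Gp9, 35.5 for Gp5 and 24.5 for Vwf. Treml1 followed at 11.7 CPM/kb, Gp1ba at 4.66, Ppbp at 4.07, Clec1b at 0.643 and Gp1bb at 0.162. Pf4 was thus the most abundant member per length in young wild-type HSCs, while its neighbour Ppbp was among the low ones. Gp1bb rested on 2 to 35 reads a library and is uncertain, and Ppbp on 14 to 386. The length used for Gp1bb includes the 92.9% of its exonic bases shared with other genes, so its place in this order is uncertain too.

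**Figure D1:**
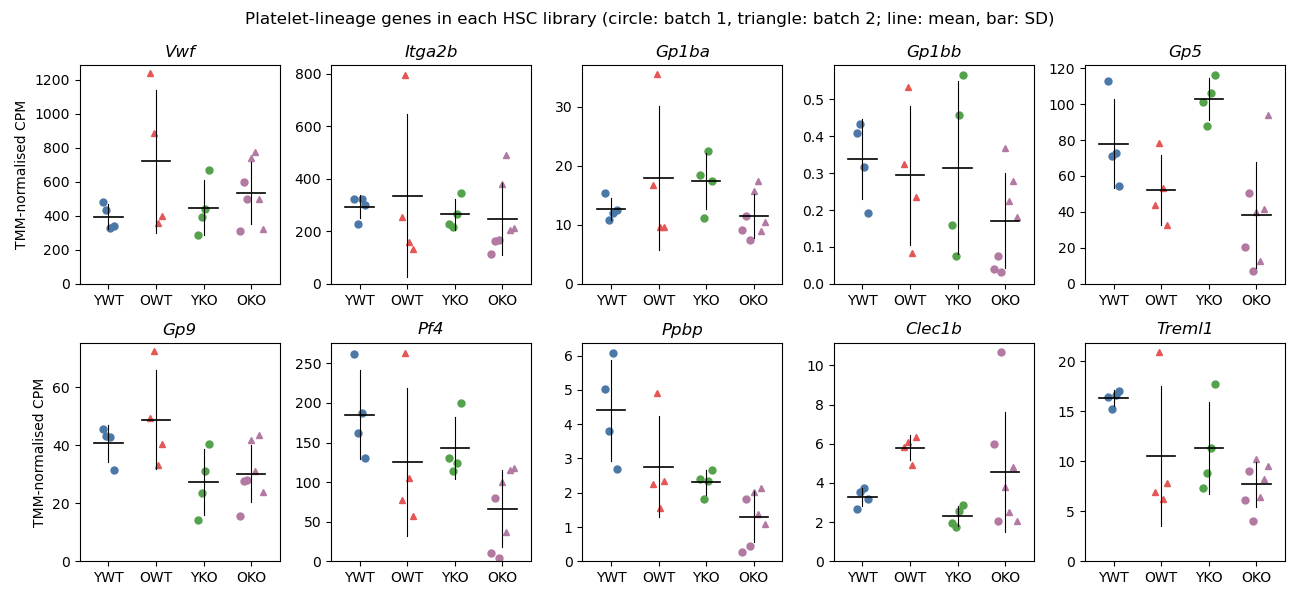
TMM-normalised CPM (vertical axis, from 0) of each of the 10 platelet-lineage genes in every library by group, with circles for batch 1, triangles for batch 2, lines for the group mean and bars for the SD. The groups overlap in most panels, with Clec1b above YWT in all 4 OWT libraries and Ppbp below YWT in all 4 YKO libraries.

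The spread of these genes between libraries of one group was wide in the old groups. The median coefficient of variation of the members was 17.1% in YWT and 27.3% in YKO, against 61.1% in OWT and 56.1% in OKO. Over 17296 genes with a mean of at least 1 CPM the corresponding medians were 18.6%, 21.9%, 23.2% and 34.4%. OWT2 was the highest OWT library for 8 of the 10 genes, OWT1 for Vwf and OWT4 for Clec1b. The share of all genes highest in OWT2 was not taken, so this count has no background beside it. None of the group differences in spread was tested.

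Across the genome, edgeR's quasi-likelihood test over 33690 genes, which asked for a Benjamini-Hochberg adjusted p under 0.05 together with a change of more than 1.5-fold, called none of the 10 members in any comparison. In OWT against YWT 0 of 10 were called, where 0.00297% of all genes were. In YKO against YWT 0 of 10 were called, where 0.0267% of all genes were. In OKO against OWT 0 of 10 were called (0.0327% of all genes), and the interaction of genotype and age called 0 of 10 and 0% of all genes. In OKO against YKO 0 of 10 were called, where 1.29% of all genes were. At an unadjusted p under 0.05 there was 1 member in OWT against YWT (Vwf), 0 in YKO against YWT, 2 in OKO against YKO (Gp5 and Clec1b), 2 in OKO against OWT (Gp9 and Ppbp) and 1 in the interaction (Gp1ba), where 4.38%, 4.59%, 15.8%, 8.14% and 4.62% of all genes were. DESeq2 called 2 members in OKO against YKO, Gp5 and Clec1b, and 0 in the other comparisons. Standard errors of the fitted log2 fold changes between 0.28 and 0.83 in the 4 comparisons set how small a difference could be detected. The libraries are labelled as replicates with no statement that each came from 1 animal, so p-values measure the spread between these libraries. In such bulk samples, fewer platelet-primed cells and less RNA per cell cannot be told apart.

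**Figure D2:**
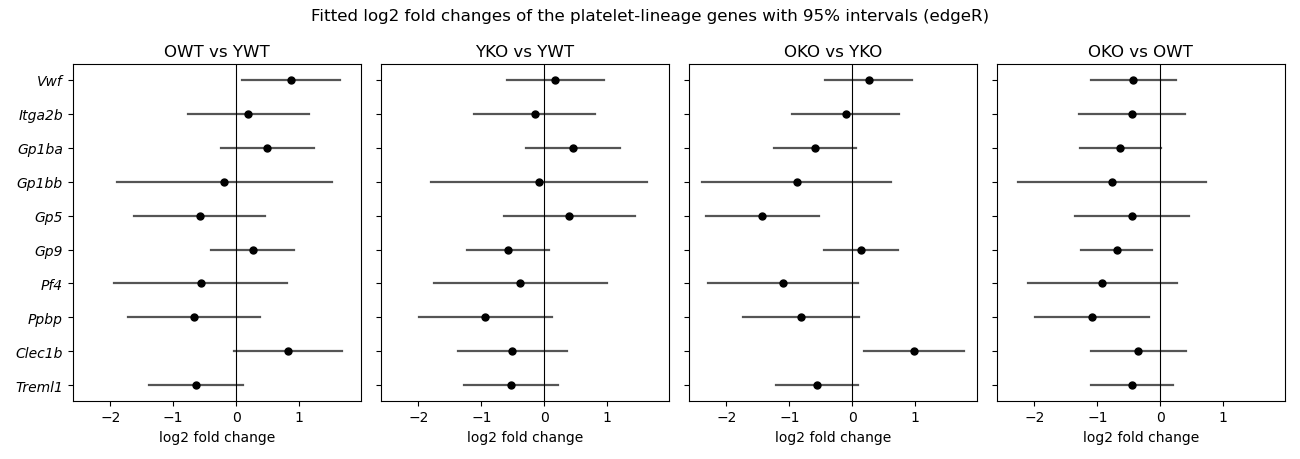
Fitted log2 fold change (horizontal axis) of each platelet-lineage gene in 4 comparisons, as points with 95% intervals from the edgeR fit. Gp5 in OKO against YKO lies furthest from 0 at -1.43, and all 10 points lie below 0 in OKO against OWT.

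Vwf, the adhesion ligand, split the OWT group. It stood at 478, 432, 326 and 341 CPM in YWT1 to YWT4 and at 1237, 885, 357 and 398 CPM in OWT1 to OWT4. YKO1 to YKO4 had 284, 393, 440 and 668 CPM, and the 7 OKO libraries ran from 312 (OKO1) over a median of 501.5 to 773 CPM (OKO5). OWT1 and OWT2 were thus above every YWT library, OWT3 and OWT4 lay within the YWT range, and OKO4 and OKO5 were the highest of OKO. The fitted OWT against YWT difference was 0.87 ± 0.38 (log2, SE), with a 95% interval from 0.087 to 1.65 and an adjusted p of 1. Without OWT1 and OWT2, a choice made after the values were seen, it was -0.01. Vwf differed by 0.18 ± 0.37 between YKO and YWT, by 0.26 ± 0.33 between OKO and YKO and by -0.43 ± 0.33 between OKO and OWT, and every adjusted p was 0.633 or more.

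Vwf is also made by endothelial cells. The 8 endothelial markers summed to 228 to 255 CPM in YWT, 202 to 422 in OWT, 214 to 294 in YKO and 159 to 461 in OKO, with the highest sums in OWT1 (373), OWT2 (422), OKO4 (372) and OKO5 (461), the libraries with the most Vwf. Tek, Pecam1 and Egfl7, which HSCs also express, had group means of 54.8 to 98.2, 56.6 to 74.3 and 58.0 to 66.8 CPM. Kdr, a VEGF receptor, ran from 10.5 to 65.4 CPM and was highest in the same libraries, at 52.2 in OWT1, 45.3 in OWT2, 65.4 in OKO4 and 59.3 in OKO5. Tek and Pecam1 were also highest in these libraries. The group means were 12.2 to 24.2 CPM for Emcn, 7.12 to 29.5 for Plvap, 0.5 to 1.27 for Cdh5 and 1.2 to 2.69 for Flt1. Plvap was at 9.89, 6.81, 8.21 and 9.19 CPM in OWT1, OWT2, OKO4 and OKO5, and highest in YKO3 at 39.5. In the same order Cdh5 was at 0.382, 0.517, 0.572 and 1.13 CPM and Flt1 at 0.679, 0.70, 1.225 and 1.15. Both were highest in OKO1, at 1.97 and 8.16 CPM. Emcn was at 27.1, 24.3, 18.6 and 20.5 CPM in that order, and highest in OWT1. The part of endothelial RNA in the Vwf values was not tested. None of the 8 was at 0 in every library of a group.

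Itga2b, the αIIb chain of the fibrinogen receptor, followed 1 OWT library. Its levels were 324, 229.5, 321.5 and 299.6 CPM in YWT, 254, 794, 161 and 134 CPM in OWT and 229, 215, 267 and 346 CPM in YKO. In OKO they ran from 112 (OKO1) over a median of 203 to 489 CPM (OKO5). OWT2 alone was above the YWT range, and OWT3 and OWT4 lay below it. The OWT against YWT difference of 0.19 ± 0.46 turned to -0.67 without OWT2, and neither value passed the test. OKO against YKO gave -0.10 ± 0.41, OKO against OWT -0.45 ± 0.41 and YKO against YWT -0.15 ± 0.46. Itgb3, the β3 partner chain and not among the 10, averaged 162 ± 53.6 CPM in YWT, 237 ± 137 in OWT, 138 ± 47.4 in YKO and 340.5 ± 259 in OKO, with fitted differences of 0.55 ± 0.51 (OWT against YWT), -0.23 ± 0.51 (YKO against YWT), 1.30 ± 0.48 (OKO against YKO, adjusted p = 0.175) and 0.52 ± 0.46 (OKO against OWT). Over the other fits tried, the adjusted p of Itgb3 in OKO against YKO ran from 0.0299 to 0.423.

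The 4 genes of the VWF receptor complex were fitted on both sides of 0 in OWT against YWT, YKO against YWT and OKO against YKO and all below 0 in OKO against OWT, and none was called. Gp5, its outer subunit, was at 113, 71.3, 72.9 and 54.4 CPM in YWT, 44.0, 78.5, 53.4 and 32.5 CPM in OWT and 101, 87.9, 106 and 116 CPM in YKO. The 7 OKO libraries held 20.4, 50.8, 7.02, 40.0, 12.6, 41.8 and 93.8 CPM in the order OKO1 to OKO7. OKO1 to OKO6 lay below every YKO library, and OKO7 lay within the YKO range. This was the largest difference of any member in any comparison, at -1.43 ± 0.43 (95% interval -2.33 to -0.54), or 2.70-fold lower, with an unadjusted p of 0.00318 and an adjusted p of 0.103. Gp5 differed by -0.58 ± 0.50 between OWT and YWT (-1.43 ± 0.71 with batch as a covariate), by 0.40 ± 0.50 between YKO and YWT and by -0.45 ± 0.44 between OKO and OWT.

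The call on Gp5 in OKO against YKO depended on the fit. Against its background of all genes called, Gp5 passed as 1 of 2 members with DESeq2 (6.3% of all genes), as the 1 member with limma-voom and quality weights (9.5%), and as the 1 member without OKO7 (5.47%, adjusted p = 0.0109). With the 3 batch 1 libraries of OKO alone, set against YKO of the same batch, Gp5 (-1.92 ± 0.45, adjusted p = 0.0105), Pf4 (-2.13 ± 0.70, adjusted p = 0.0429) and Clec1b (1.5 ± 0.39, adjusted p = 0.0161) were called, where 17.9% of all genes were. With batch as a covariate Gp1bb joined these 3 (19.1% of all genes called). Leaving out OKO1 and OKO3, a choice made after their values were seen, gave Gp5 -1.11 ± 0.37 (adjusted p = 0.177), Pf4 -0.67 ± 0.37 (0.512) and Clec1b 0.38 ± 0.29 (0.677).

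Gp1ba, the subunit that binds Vwf, was at 10.8 to 15.4 CPM in YWT, 9.61 to 35.5 in OWT, 11.2 to 22.5 in YKO and 7.42 to 17.5 in OKO. OWT2 was the high library of OWT, and the groups overlapped in every comparison. The fitted differences were 0.50 ± 0.36 in OWT against YWT, 0.46 ± 0.36 in YKO against YWT, -0.59 ± 0.31 in OKO against YKO and -0.63 ± 0.31 in OKO against OWT. The interaction of Gp1ba, its age difference in knockout HSCs minus that in wild-type HSCs, was -1.09 ± 0.47 (unadjusted p = 0.0314, adjusted p = 0.811). Without OWT2 the same interaction was -0.50.

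Gp9, a small subunit needed to bring the complex to the cell surface, ran from 31.4 to 45.8 CPM in YWT, 33.3 to 72.5 in OWT, 14.1 to 40.6 in YKO and 15.6 to 43.5 in OKO. Between OKO and OWT it differed by -0.70 ± 0.28 (95% interval -1.27 to -0.12, adjusted p = 0.592), and by -0.45 ± 0.30 within batch 2. Gp9 differed by 0.26 ± 0.32 in OWT against YWT, -0.57 ± 0.32 in YKO against YWT and 0.14 ± 0.28 in OKO against YKO. Gp1bb, the short chain joined to Gp1ba, ranged from 0.031 CPM in OKO3 to 0.566 CPM in YKO4, and its standard errors of 0.72 to 0.83 left its differences of -0.19 (OWT against YWT), -0.08 (YKO against YWT), -0.89 (OKO against YKO) and -0.77 (OKO against OWT) undetermined. With batch as a covariate Gp1bb gave -2.59 ± 1.09 in OWT against YWT. Within single libraries the ratio of Gp5 to Gp9 CPM went from 0.252 in OKO3 to 7.16 in YKO1.

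Pf4, the alpha granule chemokine also known as CXCL4, spanned 63.8-fold between OKO3 and OWT2. It stood at 262, 162, 187 and 131 CPM in YWT, 77.7, 263, 105 and 56.9 CPM in OWT and 131, 114, 125 and 200.4 CPM in YKO. In OKO1 to OKO7 it was at 11.02, 79.4, 4.12, 100.3, 36.4, 115 and 118 CPM. OKO1 and OKO3 were the lowest of all 19 libraries, and 4 of the other 5 OKO libraries held at least 79.4 CPM. The OWT against YWT difference was -0.56 ± 0.66, or -2.12 ± 0.90 with batch as a covariate and -1.19 ± 0.68 without OWT2, and none passed the test. The low OKO1 and OKO3 values enter the batch term of that fit. The other fitted differences were -0.38 ± 0.66 (YKO against YWT), -1.10 ± 0.57 (OKO against YKO, adjusted p = 0.354) and -0.92 ± 0.57 (OKO against OWT, adjusted p = 0.6). The last of these was -0.40 ± 0.41 within batch 2 and -0.29 ± 0.59 without OWT2.

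Ppbp, the precursor of the neutrophil-activating chemokine CXCL7, was low throughout. It ran at 5.02, 3.81, 6.09 and 2.70 CPM in YWT and at 2.40, 1.81, 2.34 and 2.67 CPM in YKO, so every YKO library was below every YWT library. Of all genes tested, 3.01% had all YKO libraries below all YWT libraries, and the fitted difference was -0.94 ± 0.51 (adjusted p = 1). OWT held 1.55 to 4.90 CPM and OKO 0.282 (OKO1) to 2.12 CPM (OKO6). Ppbp differed by -0.67 ± 0.50 in OWT against YWT (-1.64 ± 0.71 with batch as a covariate), by -0.82 ± 0.44 in OKO against YKO (adjusted p = 0.374) and by -1.08 ± 0.44 in OKO against OWT (95% interval -1.99 to -0.17, adjusted p = 0.592), and by -0.71 ± 0.37 in the last comparison within batch 2.

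Clec1b, whose product CLEC-2 is the platelet receptor for podoplanin, was fitted above 0 with age in both genotypes, where Ppbp was fitted below 0. It stood at 2.65, 3.55, 3.74 and 3.19 CPM in YWT and at 5.86, 6.08, 4.90 and 6.37 CPM in OWT, without overlap. Such a separation, all OWT above all YWT, was seen in 2.24% of all genes tested, and the fitted difference of 0.82 ± 0.42 had an adjusted p of 1 (1.75 ± 0.55 and 0.203 with batch as a covariate). The YKO libraries held 1.77 to 2.90 CPM and the OKO libraries 5.98, 2.06, 10.7, 3.79, 2.52, 4.81 and 2.05 CPM. OKO1 and OKO3, the lowest in Pf4, were the highest of OKO in Clec1b, and all 4 batch 2 OKO libraries were below all 4 OWT libraries of the same batch, by a margin of 4.81 CPM in OKO6 to 4.90 CPM in OWT3. Of all genes, 1.03% were separated in that direction. OKO against YKO gave 0.98 ± 0.38 (adjusted p = 0.207), YKO against YWT -0.51 ± 0.42 and OKO against OWT -0.35 ± 0.36, or -0.79 ± 0.30 within batch 2 (unadjusted p = 0.0161, adjusted p = 1). Reads of Clec9a, which overlaps Clec1b, numbered 726 beside 690 for Clec1b in OKO3, 245 beside 297 in OKO1 and 7 beside 37 in YKO1, and the share of reads placed on the wrong one of the pair was not tested.

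Treml1, a receptor stored in alpha granules, was tight in YWT at 15.3 to 17.0 CPM. In OWT it was at 6.98, 21.0, 6.28 and 7.79 CPM, so 3 libraries were below the YWT range and OWT2 above it. YKO held 7.29 to 17.8 CPM and OKO 4.08 to 10.3 CPM, so the knockout groups overlapped. Treml1 differed by -0.64 ± 0.36 in OWT against YWT, -0.53 ± 0.36 in YKO against YWT, -0.56 ± 0.31 in OKO against YKO and -0.45 ± 0.31 in OKO against OWT, and no adjusted p was under 0.389. Without OWT2 the first of these was -1.19 ± 0.32 (adjusted p = 0.636) and the last 0.11.

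**Figure D3:**
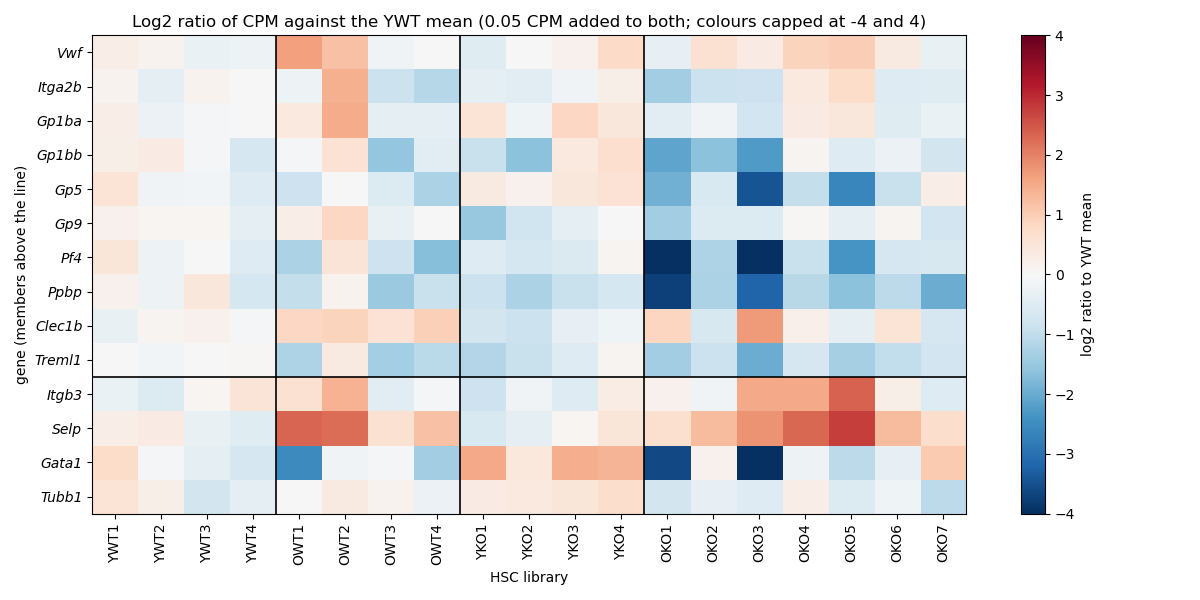
Log2 ratio of CPM to the YWT mean, with 0.05 CPM added to both, for the 10 members and 4 further lineage genes (vertical axis) in each library (horizontal axis), with colours capped at -4 and 4. Pf4, Ppbp and Gata1 are darkest blue in OKO1 and OKO3, where Clec1b is red, and Selp is red in all OWT and OKO libraries.

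As a group the 10 members split evenly in OWT against YWT, where 5 fitted differences were above 0 and 5 below, with a median of 0.00055 (all genes -0.05). This split did not hold in other fits: 3 were above 0 and 7 below with batch as a covariate (median -1.0) and without OWT2 (median -0.64), and 1 was above and 9 below without OWT1 and OWT2 (median -0.88). In YKO against YWT 7 were below 0, with a median of -0.27 (all genes -0.02). In OKO against YKO 7 were below 0, with a median of -0.58 where the median of all genes was 0.23, and Vwf, Gp9 and Clec1b were above 0. Other scalings moved the median of all genes in this comparison to 0.32 (DESeq2), 0.43 (upper quartile) and 0.63 (library total alone), with member medians of -0.52, -0.44 and -0.31, and Itga2b turned to 0.09 under the last. In OKO against OWT all 10 were below 0, with a median of -0.54 (all genes 0.12), which became 9 of 10 when libraries were scaled by their totals alone (Clec1b at 0.11) and 5 of 10 without OWT1 and OWT2. This direction was not particular to the members. All 10 HSC markers (median -0.39), 56 of 66 genes of the wider megakaryocyte list below (median -0.31) and 8 of 8 granulocyte markers were also below 0. So were 6 of 8 B cell, erythroid and proliferation markers each, 4 of 8 T cell and endothelial markers each and 1 of 8 macrophage markers. The comparisons share groups, so these counts are not independent of each other.

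Some pairs of members rose and fell together across libraries. Of 45 pairs, 18 had a Spearman's rho over 0.5 and 8 had a rho below 0. Over the 19 libraries, which share their normalisation, Spearman's rho of log2(CPM + 1) was 0.87 between Pf4 and Treml1, 0.83 between Pf4 and Gp5, 0.82 between Pf4 and Ppbp and 0.79 between Itga2b and Gp1ba. After the group means were subtracted, Pf4 and Gp5 had a rho of 0.93. Vwf had a rho of 0.58 with Gp9, 0.49 with Itga2b and 0.47 with Gp1bb, or 0.775, 0.67 and 0.69 after the group means were subtracted. It had -0.07 with Pf4, 0.06 with Ppbp and 0.13 with Treml1, or 0.23, 0.47 and 0.40 after the same step. With Gp1ba, Gp5 and Clec1b the values for Vwf were 0.365, -0.20 and 0.24, or 0.68, 0.19 and -0.05. Clec1b ran from -0.57 with Gp5 to 0.46 with Gp9, or -0.36 and 0.23 after the group means were subtracted. In the same libraries the ratio of Pf4 to Vwf ran from 0.0083 in OKO3 to 0.573 in YWT3. Among 11242 genes with a mean of at least 8 CPM, those most like Vwf were Sox18 (rho 0.94), Jak3 (0.939) and Ece1 (0.935). Those most like Itga2b were Spindoc (0.94), Mettl3 (0.93) and Map2k3 (0.93), and those most like Pf4 were Tuba8 (0.93), Zfp367 (0.90) and Unc119 (0.90).

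**Figure D4:**
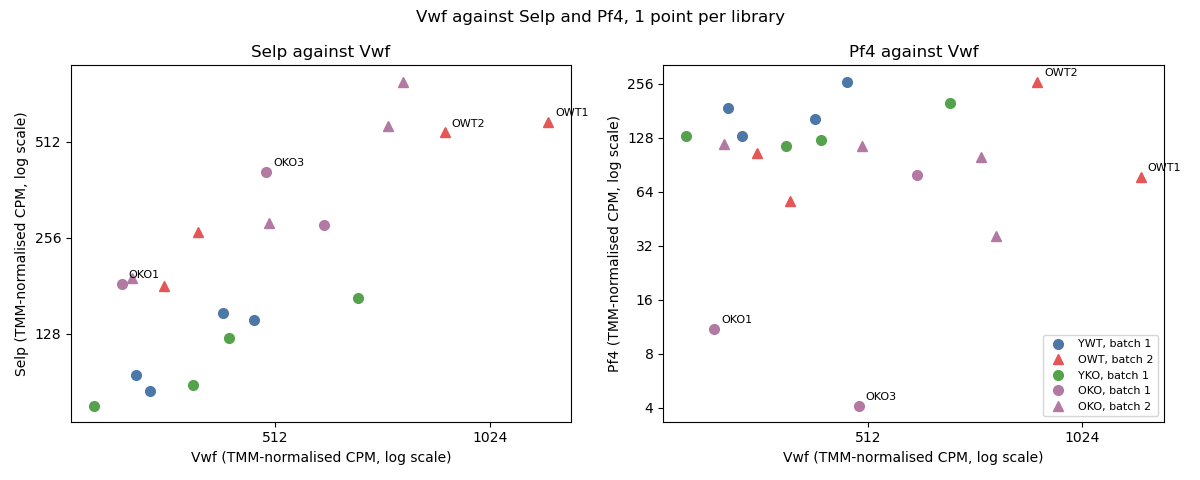
Selp (left) and Pf4 (right) against Vwf, all in TMM-normalised CPM on log axes, with 1 point for each of the 19 libraries, coloured by group, circles for batch 1 and triangles for batch 2. Selp is higher where Vwf is higher within the old libraries, while OKO1 and OKO3, lowest in Pf4 at 11.02 and 4.12 CPM, have 312 and 497 CPM of Vwf.

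A wider list of 66 genes of the megakaryocyte programme gave few calls. Of the 66, 0 were called in OWT against YWT, 0 in YKO against YWT, 0 in OKO against OWT and 0 in the interaction. In OKO against YKO 2 were called higher (0.597% of all genes) and 2 lower (0.692% of all genes). Selp (P-selectin, the leukocyte receptor of alpha granules) rose by 1.77 ± 0.41 (adjusted p = 0.0332). Sparc, a matrix glycoprotein of alpha granules, fell by 2.50 on the log2 scale (SE 0.38, adjusted p = 0.00148) and Gfi1b, a repressor needed for megakaryocytes and erythroid cells, fell by 1.19 (SE 0.29, adjusted p = 0.04). Without OKO1 to OKO3, YWT4 and YKO2 together 0 of 66 were called, with Selp at 1.91, Sparc at -2.32 and Gfi1b at -0.96.

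Selp was higher in the old libraries of both genotypes. It was at 141, 148, 95.2 and 84.3 CPM in YWT and 76.1, 88.5, 124 and 165 CPM in YKO, against 590.2, 547, 180.4 and 266.5 CPM in OWT and 184 to 789.6 CPM in OKO. Every old library was above every young one, as for 0.142% of all genes. OWT against YWT gave 1.76 ± 0.44 (unadjusted p = 0.000645, adjusted p = 0.3), and DESeq2 called it (adjusted p = 0.00634). The value was 1.10 ± 0.60 with batch as a covariate (adjusted p = 0.349) and 1.00 ± 0.47 without OWT1 and OWT2 (adjusted p = 1). Between genotypes it differed by -0.05 ± 0.43 in young and -0.03 ± 0.38 in old HSCs.

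Gata1, the factor that drives megakaryocyte and erythroid genes, was at 55.1 to 146 CPM in YWT, 14.8 to 84.2 in OWT, 118 to 251 in YKO and 5.27 (OKO3) to 179 CPM (OKO7) in OKO, with OKO1 at 7.11. It differed by -0.72 ± 0.72 in OWT against YWT, 1.25 ± 0.72 in YKO against YWT, -1.61 ± 0.62 in OKO against YKO (adjusted p = 0.197, but -2.34 and 0.011 with limma-voom and -2.49 and 0.0342 with batch as a covariate) and 0.36 ± 0.64 in OKO against OWT. Tubb1 and Gp6, also of the wider list, were low. Tubb1, the platelet tubulin, averaged 1.30 to 2.43 CPM and differed by 0.09 ± 0.37, 0.50 ± 0.37, -0.90 ± 0.32 and -0.49 ± 0.32 in the same 4 comparisons. Gp6, the collagen receptor, averaged 0.141 to 0.407 CPM and differed by 0.16 ± 1.02, 1.14 ± 1.02, 0.36 ± 0.89 and 1.35 ± 0.93, and neither was called in these fits. Over the other fits tried, the adjusted p of Tubb1 in OKO against YKO ran from 0.0387 to 0.374.

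Markers of other blood cells moved with the groups and with single libraries. The 8 erythroid markers summed to 661 to 2030 CPM in YWT, 170 to 915.5 in OWT and 1609 to 4693 in YKO, and in OKO to 35.6 (OKO3), 111 (OKO1) and 102 (OKO5) up to 2509 CPM (OKO7). OKO1, OKO3 and OKO5 were also the OKO libraries lowest in Gp5 and Pf4, and OKO7 the highest in both. In OKO against YKO 5 of 8 erythroid, 5 of 8 B cell, 3 of 8 T cell, 1 of 8 macrophage and 1 of 8 endothelial markers were called lower (0.692% of all genes), and 1 of 8 granulocyte markers was called higher (0.597%). In YKO against YWT 1 of 8 erythroid markers was called higher, where 0.0267% of all genes were called in either direction. B cell markers summed to 222 to 722.5 CPM in YWT, 68.8 to 246 in OWT, 196.5 to 1559 in YKO and 29.0 to 245 in OKO. T cell markers summed to 19.8 to 36.8, 18.1 to 30.2, 31.5 to 162 and 8.74 to 48.1 CPM, macrophage markers to 106 to 158, 64.2 to 95.1, 144 to 259.5 and 28.8 to 269 CPM, and granulocyte markers to 210.2 to 402, 605 to 895, 50.3 to 290 and 202 to 605 CPM in the same order. No marker was at 0 in every library of a group. The 10 HSC markers summed to 2234 to 2922 CPM in YWT, 2689 to 3920 in OWT, 1898 to 2443 in YKO and 1986 to 3452 in OKO, and were highest in OWT1, OWT2, OKO4 and OKO5, the libraries highest in Vwf. The part of these marker changes in the values of the 10 genes was not tested.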

How the data were processed

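The authors trimmed the SMART-Seq v4 reads (Trim Galore 0.4.3 with cutadapt), aligned them to mm10 with STAR and deposited raw featureCounts counts per gene symbol, and strand and mate settings are not given in the sources used here. The 10 bisulfite samples were not analysed here. Per the labels, the 19 libraries were mapped to 4 groups by genotype and age. Counts were filtered (filterByExpr), TMM-scaled and fitted in one edgeR 4.0.16 quasi-likelihood model with a mean per group (R 4.3.3), with p-values adjusted by Benjamini-Hochberg over all 33690 genes tested. A gene was called past 1.5-fold with an adjusted p under 0.05 (the interaction, on the adjusted p alone). The script was tested on simulated data. DESeq2 1.42.0, limma 3.58.1 voom, other scalings, filters, covariates and left-out libraries were tried. Depth ran from 22197555 to 77970627 counts a library, and no 2 libraries were identical. Symbols were matched to GENCODE M21 (54510 of 55376 found). The study's own table of samples gave batch and sex, matched by library total, and its sex disagreed with Xist and Ddx3y in 3 libraries. The members and lists were chosen with earlier results of these data known. Named genes were the 10 members, the programme genes called, Itgb3, Gata1, Gp6, Selp and Tubb1, the 3 genes most like Vwf, Itga2b and Pf4, and Gadd45b, with 2 genes of this rule not reported here. Clec9a was added after its values were seen.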

Additional observations from a re-analysis of the deposited data

Results flagged for a closer look

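Treml1 in OWT2, at 21.0 CPM, was far from the other 3 OWT libraries, of which the nearest held 7.79 CPM: the gap was 0.897 of the range of the group, above Dixon's critical value for 4 samples. This was the 1 gene and group set apart this way among 60 examined (10 members and 5 further lineage genes in 4 groups), where chance alone gives about 1 in 20. OWT2 was also the highest OWT library in Itga2b (794 CPM), Gp1ba (35.5 CPM), Gp9 (72.5 CPM) and Pf4 (263 CPM), and its 8 endothelial markers summed to 422 CPM. Scaled by library total alone, OWT2 held 19.95 CPM of Ddx3y and 2.54 CPM of Xist. OWT1, OWT3 and OWT4 held 0 CPM of Ddx3y and 177.8 CPM or more of Xist. The part of sex in the OWT2 values was not tested.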

How the results depend on the processing

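Member counts stayed at 0 in OWT against YWT and YKO against YWT (16 other settings each), OKO against OWT (17) and the interaction (15), and in 19 fits that leave out 1 library, but not in OKO against YKO. There 2 members were called with DESeq2, 1 with limma-voom, 4 with batch as a covariate, 3 with OKO of the same batch as YKO, 1 with the replicate block (6.97% of all genes called) and 0 to 1 with a library left out (1 without OKO7). Programme genes called in OKO against YKO (4 of 66) became, with the share of all genes called (1.29% as reported) in brackets, 14 with DESeq2 (6.3%), 14 with limma-voom (9.5%), 10 with upper-quartile factors (3.2%), 16 at a mean CPM of at least 5 (12.1%), 1 with the compared groups only (0.377%), 19 with batch (19.1%), 18 with OKO of the same batch (17.9%), 8 with the replicate block (6.97%), 0 without OKO1 to OKO3, YWT4 and YKO2 (0.131%), and 1 to 10 with a library left out (1 without YKO1, YKO3 or OKO3, 2 without YKO2 or OKO4, 10 without OKO7, 0.284% to 5.47%). In OWT against YWT DESeq2 called 2 (Selp and Sparc) where edgeR called 0. Of 1442 refitted member differences 1394 kept their direction and side of the threshold, 36 changed sign, 6 of them further than 1 SE from 0, and 12 became called. Replicate numbers did not pair the libraries: 5 of 24 correlations of same-numbered deviations were over 0.1 (-0.485 to 0.325), and 6 of 48 searches matched a library best with its own number.

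Signs changed as follows, and the cause was not tested. In OWT against YWT, leaving out OWT1 and OWT2 gave Vwf -0.0057, Itga2b -0.95, Gp1ba -0.34, Gp9 -0.087 and Itgb3 -0.20, batch as a covariate gave Itga2b -0.94, Gp9 -0.31, Itgb3 -0.037 and Tubb1 -0.15, limma-voom gave Itga2b -0.27, library totals gave Gp6 -0.026, and leaving out the 5 libraries named above gave Tubb1 -0.016. In YKO against YWT limma-voom gave Gp1bb 0.080 and Selp 0.023, and without the 5 libraries Gp1bb was 0.10. In OKO against YKO batch gave Gp9 -0.21, OKO of the same batch gave Gp9 -0.15, and Itga2b was 0.089 with library totals, 0.046 at a mean CPM of at least 5, 0.062 with sex by Xist and Ddx3y, 0.11 without OKO1 and OKO3 and 0.19 without the 5 libraries. Gp6 was -0.16 and -0.86 in these last fits. In OKO against OWT leaving out OWT1 and OWT2 gave Vwf 0.47, Itga2b 0.71, Gp1ba 0.23, Gp1bb 0.038, Treml1 0.083 and Selp 0.76, limma-voom gave Itga2b 0.051, Gata1 -0.031 and Selp 0.28, library totals gave Clec1b 0.11 and Selp 0.21, the replicate block gave Gata1 -0.34, and leaving out the 5 libraries gave Gp6 -0.041 and Selp 0.23. Selp was 0.086 with DESeq2, 0.24 with OKO of the same batch, 0.21 with batch, 0.056 with the compared groups only, 0.21 at a mean CPM of at least 5, 0.027 with no filter, 0.17 with upper-quartile factors and 0.097 without OKO1 and OKO3.

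With a library left out, values in OWT against YWT ranged from -0.67 to 0.42 for Itga2b, -0.057 to 0.69 for Gp1ba, -0.61 to 0.11 for Gp1bb, -0.80 to 0.85 for Gp6 and -0.092 to 0.33 for Tubb1. In YKO against YWT they ranged from -0.11 to 0.32 for Vwf, -0.53 to 0.27 for Gp1bb and -0.31 to 0.083 for Selp. In OKO against YKO they ranged from -0.36 to 0.11 for Itga2b and -0.044 to 0.44 for Gp9, and in OKO against OWT from -0.70 to 0.43 for Itga2b, -0.61 to 0.11 for Treml1, -0.095 to 0.68 for Gata1 and -0.30 to 0.25 for Selp. The low counts of Gp1bb, Gp6 and Ppbp limit their precision.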

Other observations

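Vwf, Itga2b and Selp split the libraries of batch 2 alike in both genotypes. OWT1, OWT2, OKO4 and OKO5 held 1237, 885, 737.5 and 773 CPM of Vwf, against 357, 398, 501.5 and 322 CPM in OWT3, OWT4, OKO6 and OKO7. For Itga2b the former held 254, 794, 382 and 489 CPM and the latter 161, 134, 203 and 211 CPM, and for Selp the former held 590.2, 547, 571 and 789.6 CPM and the latter 180.4, 266.5, 284.5 and 191.5 CPM. The study's own sample table gives OWT1, OWT2, OKO4 and OKO5 a higher age number, without a unit, and a larger share of uniquely aligned reads than the other libraries of that batch. The split was seen in the values first and was not tested.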
